A study of Mus musculus with 12 samples.

Results

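The 10 genes of the BCL2 family described here were followed through normal and leukemic mouse bone marrow: the survival genes Mcl1, Bcl2l1, Bcl2 and Bcl2a1b, the effectors Bax and Bak1, and the BH3-only genes Bid, Bcl2l11, Bbc3 and Pmaip1. They were taken by gene symbol, all 10 found among the 24107 genes of the expression table, and all 10 passed the filter on low values (3 or more libraries with an FPKM of 1 or above), as did 11462 genes in all. FPKM counts sequenced fragments relative to the length of the transcript and a scaling factor of the library, so levels of different genes can be set side by side. In this table the factor was a median-of-ratios size factor (the median over genes of a library's ratio to the average library), not the library total.

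BCL2 family proteins meet on the outer mitochondrial membrane and decide whether it is opened. BAX and BAK form the pores through which cytochrome c escapes to activate caspases, MCL1, BCL-XL (encoded by Bcl2l1), BCL2 and A1 (encoded by the Bcl2a1 genes) hold them in check, and BH3-only proteins such as BID, BIM (Bcl2l11), PUMA (Bbc3) and NOXA (Pmaip1) neutralise the survival proteins or activate the effectors. In blood formation MCL1 is needed by stem and progenitor cells, BCL-XL by maturing red cells and platelets, BCL2 by mature lymphocytes, and A1 is a gene of granulocytes and lymphocytes.

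The 12 libraries fell into 4 groups of 3, all from C57BL/6 mice. Ctrl-MEP were megakaryocyte-erythroid progenitors (MEPs, which give rise to red cells and platelets) of wild-type mice, and Ctrl-Bulk were whole bone marrow cells of wild-type mice. L-MEP were MEPs of genotype Prdm16s from leukemic recipient mice, and Prdm16s-Bulk were GFP+ bone marrow cells of the same genotype from leukemic recipients. Prdm16s is the short isoform of the transcription factor PRDM16. The labels give no age, no vector for the Prdm16s or GFP sequence, and do not state whether each library stands for a mouse of its own; the p-values therefore describe only the spread between these libraries, which may be technical. The GFP+ cells were selected and the control marrow was not, and in both populations fewer cells of a type and less RNA per cell cannot be told apart.

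Depth was uneven: 10 libraries held 6.72 to 9.71 M recovered reads (M, 1e+06), Prdm16s-Bulk replicate 2 held 1.15 M and L-MEP replicate 3 held 0.572 M. Prdm16 itself was at 0.363 to 0.957 FPKM in the control libraries and at 6.35 to 15.3 FPKM in the Prdm16s libraries. L-MEP replicate 3 stood apart from its group. On the first principal component, 51.6% of the variance, it lay at 67.4, inside the range of the GFP+ marrow (58.8 to 71.3), while the other L-MEP libraries lay at -13 and -17.3. Its 10 mature neutrophil markers summed to 77944 FPKM against 507 and 1722 FPKM in replicates 1 and 2. Xist, the X-inactivation RNA of female cells, was at 39.2 to 57.1 FPKM in replicates 1 and 2 of both Prdm16s groups. It was at most 0.0904 FPKM in the other 8 libraries, every control library among them. By Xist, sex of the cells thus differs from the controls in these replicates and cannot be told apart from genotype there. Calls of the 10 genes that change without L-MEP replicate 3 are given with and without it.

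In leukemic MEPs 5 of the 10 genes were higher than in control MEPs and 2 were lower. The survival genes Mcl1, Bcl2l1 and Bcl2 rose together with the BH3-only genes Bbc3 and Pmaip1, while the BH3-only genes Bid and Bcl2l11 fell. Tested over all genes (limma on log2(FPKM + 1), Benjamini-Hochberg adjusted p under 0.05), 26.0% of genes were called in this comparison, 13.7% higher and 12.3% lower, against 7 of the 10 here. For 7 of the 10 the libraries of the 2 groups did not overlap, as for 40.8% of genes tested. The members' median change was 0.65 on the log2 scale, against 0.018 over all genes tested. Without L-MEP replicate 3 the count was again 5 higher and 2 lower, with 27.4% of genes called.

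In the marrow 2 of the 10 were higher in GFP+ than in control cells, Mcl1 and Bbc3, and 0 were lower by limma. Of all genes 9.05% were called by limma, 3.02% higher and 6.03% lower. Voom on recovered reads called 1 member higher and 1 lower, beside 804 higher and 1104 lower of 11462 genes. At an unadjusted p under 0.05 there were 4 members higher and 3 lower, with no share of all genes to set beside them. The groups did not overlap for 6 of the 10 (37.2% of genes tested), and the members' median change was 0.23 against -0.048 over all genes. Without L-MEP replicate 3, which enters this comparison only through the shared estimate of the spread, 3 members were called higher and 2 lower, with 18.7% of genes called. Without both libraries of low depth 1 was called higher and 1 lower, with 16.1% of genes called.

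**Figure D1:**
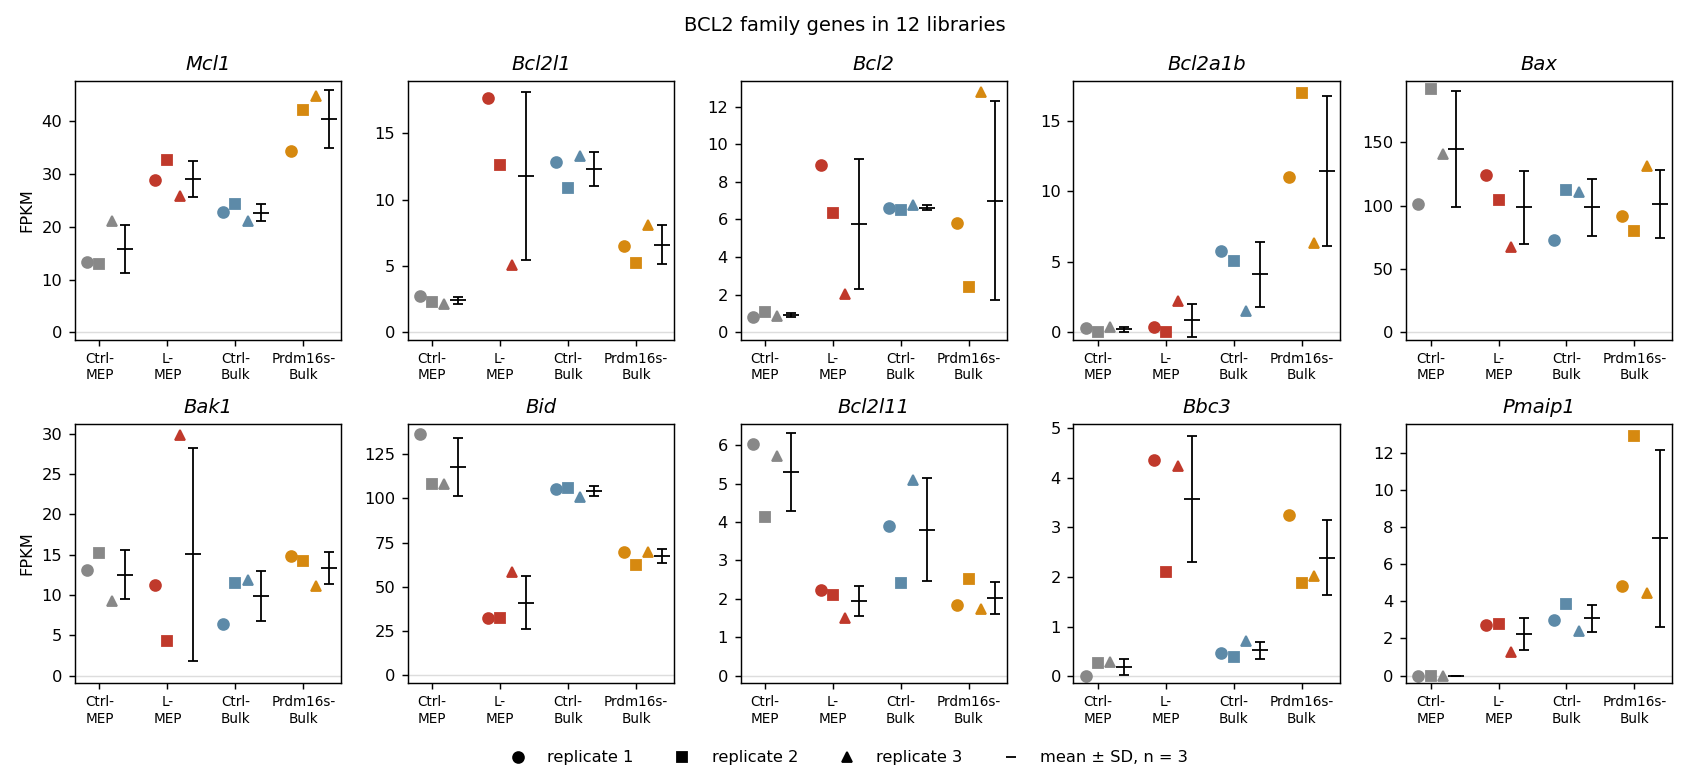
FPKM of each of the 10 genes (vertical axes, linear, each with its own scale) in the 4 groups, with 1 point per library, its shape giving the replicate, and the mean ± SD (n = 3) as a bar beside the points. The Bid libraries of the 4 groups do not overlap, from 108.3 to 136 FPKM in Ctrl-MEP to 32.3 to 58.4 FPKM in L-MEP. Groups next to each other in level were not called different for Bid by limma over all libraries. Bbc3 is at or below 0.707 FPKM in the control libraries and at 1.88 FPKM or more in the Prdm16s libraries.

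**Figure D2:**
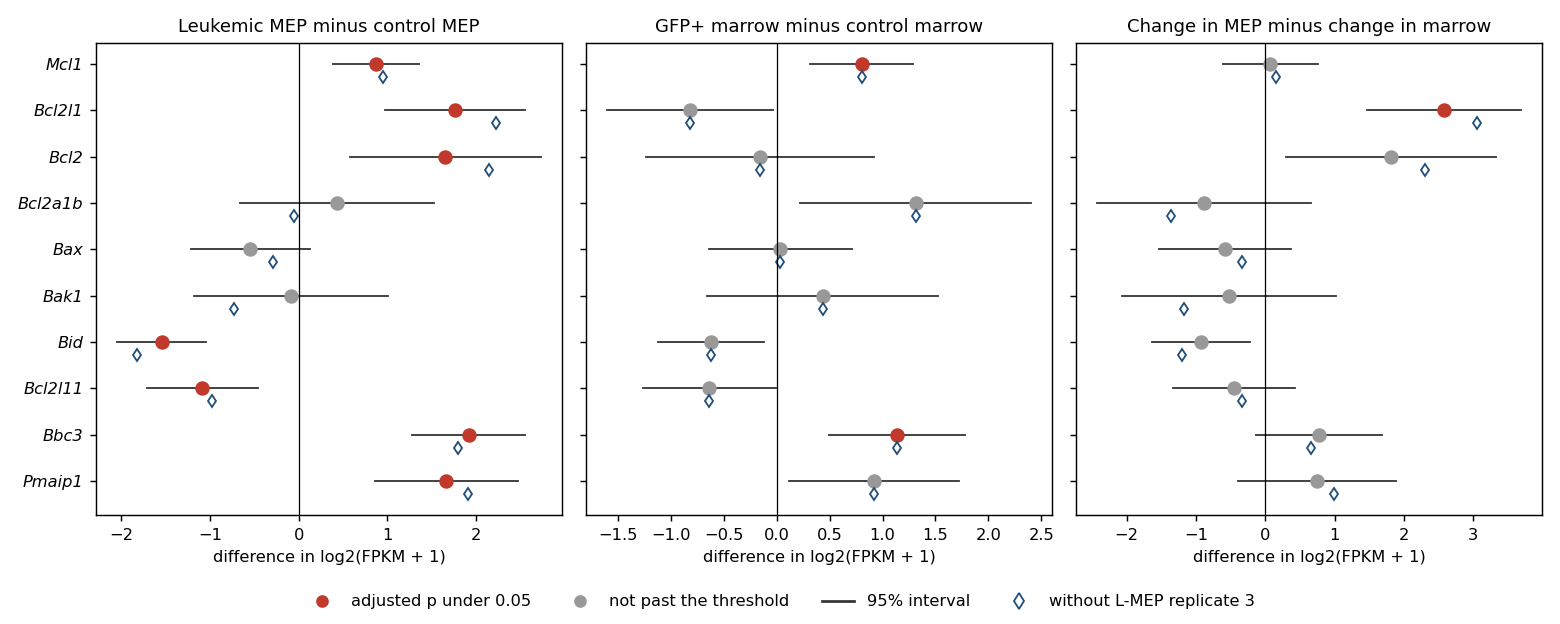
Difference in log2(FPKM + 1) for each gene between leukemic and control MEPs (left), between GFP+ and control marrow (middle), and the difference of these differences (right), with its 95% interval from the limma fit; red points have an adjusted p under 0.05 and open diamonds give the value without L-MEP replicate 3. On the left 7 points are red, in the middle 2, and Bcl2l1 alone, at 2.58, on the right.

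Sequences are shown for genes on which the results turn and whose region bears on how they can be read. Bcl2a1b, with 0 to 3 reads in each MEP library, belongs to a set of near-identical copies, and the first 60 bases of the reading frames (found in GENCODE vM21 transcripts, 519 bases each) of 3 copies are set below one another, with capitals at the positions where the copies differ, 6 of them in this stretch and 12 over the frame.
Bcl2a1b: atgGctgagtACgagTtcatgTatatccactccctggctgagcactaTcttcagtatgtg
Bcl2a1a: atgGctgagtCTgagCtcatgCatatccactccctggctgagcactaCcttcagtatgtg
Bcl2a1d: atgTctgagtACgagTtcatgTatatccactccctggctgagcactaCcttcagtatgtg
The Bcl2a1b frame was 97.9% identical to Bcl2a1a, with 11 mismatches, and 98.8% identical to Bcl2a1d, with 6, so a short read from one copy can often not be told from another. Of 227 reads counted to the 4 copies in all libraries, 196 (86.3%) were counted to Bcl2a1b, and how reads shared by copies were assigned is not given in the sources used here.

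Upstream sequence is shown for Bid, which fell in leukemic MEPs, for Bcl2l1, which rose, and for Bax, which did not pass the test and is a textbook p53 target. The RefSeq promoter table (GRCm38.p6) held 14 start sites of 9 of the 10 genes, and the 250 bases before each were searched on both strands. The GATA motif was searched as AGATAA and as AGATAG, and with a first T as TGATAA and as TGATAG. The STAT motif was TTCNNNGAA. The amino acid response motif, called CARE, was TGATGNAA. The cAMP response motif, called CRE, was TGACGTCA. The p53 half-site was searched by its usual pattern. Of the 14 windows 4 held a match, 1 each, so no matches overlapped. The sequences printed all come from windows with a match, shown in capitals, and read 5′ to 3′ on the gene's strand. The Bcl2a1b window is not printed, and the windows of Bbc3, another p53 target, held 0 matches.
Bid, chr6:120916825-120917074, minus strand: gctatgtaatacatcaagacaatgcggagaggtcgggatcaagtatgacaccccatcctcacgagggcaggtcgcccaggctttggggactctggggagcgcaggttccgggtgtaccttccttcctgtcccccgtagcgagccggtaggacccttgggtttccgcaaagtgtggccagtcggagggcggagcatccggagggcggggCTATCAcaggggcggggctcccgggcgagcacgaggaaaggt
Bax, chr7:45466899-45467148, minus strand: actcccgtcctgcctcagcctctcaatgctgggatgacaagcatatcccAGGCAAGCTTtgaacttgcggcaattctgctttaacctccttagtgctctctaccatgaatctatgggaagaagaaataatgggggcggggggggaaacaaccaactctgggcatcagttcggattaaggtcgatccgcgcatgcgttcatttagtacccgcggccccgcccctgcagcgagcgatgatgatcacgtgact
Bcl2l1, chr2:152828513-152828542, minus strand: attgtgacccaaAGATAAagagagcagagg
The Bid window held a GATA match that starts 42 bases before the start site, on the opposite strand. Bcl2l1 held one 41 bases before an internal start site, of which 30 bases are shown, and none before its other 2 start sites. Bax held a p53 half-site 201 bases before its start, and Bcl2a1b a CARE match 40 bases before its own. GATA matches stood in 26.5% of all 32851 promoters of the same length, p53 half-sites in 7.13%, CARE in 3.45%, STAT in 7.02% and CRE in 1.55%. These matches are letters in a window and were not tested as binding sites.

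Among the survival genes, Mcl1 (chr3:95658788-95663176 on GRCm38, plus strand) was higher in both Prdm16s populations. MCL1 is a short-lived protein that binds BAK and BIM. In Ctrl-MEP its level was 13.4, 12.9 and 21.1 FPKM in replicates 1, 2 and 3, and in L-MEP 28.8, 32.7 and 25.9 FPKM. In Ctrl-Bulk it was 22.8, 24.2 and 21.1 FPKM, and in Prdm16s-Bulk 34.4, 42.2 and 44.8 FPKM. All 3 Prdm16s libraries lay above all 3 controls in each population, and the highest Ctrl-MEP library lay within the range of the control marrow. Mean levels rose from 15.8 ± 4.61 to 29.1 ± 3.40 FPKM in MEPs and from 22.7 ± 1.60 to 40.5 ± 5.43 FPKM in marrow (SD, n = 3).

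The log2 change of Mcl1 was 0.87 ± 0.22 in MEPs (SE, limma adjusted p = 0.0134) and 0.80 ± 0.22 in marrow (limma adjusted p = 0.0436), and the difference between these changes was 0.070, with a 95% interval from -0.62 to 0.76. The call in MEPs was lost without Ctrl-MEP replicate 2 (limma adjusted p = 0.0581) and when only the MEP groups were fitted (0.0616). The marrow call did not hold without any single Ctrl-Bulk or Prdm16s-Bulk library (limma adjusted p from 0.0545 to 0.168), or with the replicate number as a block (0.0668). Scaled to equal totals, the marrow difference was 0.57 (limma adjusted p = 0.19).

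Bcl2l1 (chr2:152780668-152831728, minus strand) differed between the populations in how it changed. Its level was 2.74, 2.33 and 2.18 FPKM in Ctrl-MEP and 17.7, 12.6 and 5.07 FPKM in L-MEP. Ctrl-Bulk held 12.8, 10.8 and 13.3 FPKM, and Prdm16s-Bulk 6.50, 5.21 and 8.12 FPKM. Each L-MEP library exceeded every Ctrl-MEP library, with the lowest L-MEP value in replicate 3, whereas each GFP+ marrow library lay below every control marrow library. The L-MEP value of replicate 3 rests on 14 reads, with a 95% Poisson interval of 2.77 to 8.51 FPKM that covers counting error only. The log2 change was 1.76 ± 0.36 in MEPs (SE, limma adjusted p = 0.00393), from 2.42 ± 0.292 to 11.8 ± 6.34 FPKM (SD, n = 3). In marrow it was -0.82 ± 0.36 (limma adjusted p = 0.189).

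The change of Bcl2l1 in MEPs minus that in marrow was 2.58 ± 0.51 (SE, limma adjusted p = 0.0133), and Bcl2l1 was the only member called by limma in this test, in which 4.89% of genes were called, 4.52% of all genes in this direction. Voom called 3 members higher (Bcl2l1, Bcl2 and Pmaip1) and 1 lower (Bid), beside 795 higher and 97 lower of 11462 genes. At an unadjusted p under 0.05 there were 2 members higher and 1 lower, with no share of all genes to set beside them. Without L-MEP replicate 3 the change in MEPs was 2.23, and that in marrow passed the test (-0.82, limma adjusted p = 0.0283). After quantile normalization the difference of changes was 2.21 and missed the threshold (limma adjusted p = 0.0547). Bcl2l1 in MEPs was called under every alternative processing tried.

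Bcl2 (chr1:106538178-106714274, minus strand), the founding member of the family, was low in control MEPs. There it was at 0.818, 1.06 and 0.893 FPKM, and in L-MEP at 8.87, 6.34 and 2.05 FPKM. In Ctrl-Bulk it was at 6.63, 6.48 and 6.76 FPKM, and in Prdm16s-Bulk at 5.81, 2.39 and 12.8 FPKM. The L-MEP libraries all lay above the Ctrl-MEP libraries, replicate 3 by the least, on 9 reads with a Poisson interval of 0.938 to 3.89 FPKM. The GFP+ marrow libraries spread on either side of the narrow range of the control marrow.

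In MEPs the log2 change of Bcl2 was 1.65 ± 0.49 (SE, limma adjusted p = 0.0277), and 2.15 without L-MEP replicate 3 (0.00368). The call was lost without each Ctrl-MEP library (limma adjusted p = 0.0751, 0.065 and 0.0765), without L-MEP replicate 1 (0.0961) or 2 (0.0678), without the filter on low values (0.0587) and after quantile normalization (0.107). The marrow change was -0.16 ± 0.49 (limma adjusted p = 0.887). The difference of the changes, 1.81, missed the threshold (limma adjusted p = 0.195) and passed it without L-MEP replicate 3 (2.31, 0.0294). An RNA on the other strand, D630008O14Rik, shares 558 exon bases with Bcl2, and the sources used here do not say whether counting used strand.

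Bcl2a1b (chr9:89199209-89207827, plus strand) was a gene of the marrow rather than of the MEPs in these libraries. It was at 0.281, 0 and 0.366 FPKM in Ctrl-MEP (2, 0 and 2 reads) and at 0.353, 0 and 2.19 FPKM in L-MEP (3, 0 and 1 reads). Marrow levels were 5.78, 5.09 and 1.50 FPKM in Ctrl-Bulk and 11.0, 17.0 and 6.33 FPKM in Prdm16s-Bulk, with 9 to 55 reads a library. The GFP+ libraries lay above all control marrow libraries, while the MEP groups overlapped. Its log2 change of 1.31 ± 0.50 in marrow did not pass the test (SE, limma adjusted p = 0.133), but passed it without L-MEP replicate 3 (0.0436). In MEPs the change was 0.43 (limma adjusted p = 0.558), and -0.051 without that library (0.957).

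L-MEP libraries were lower than GFP+ marrow in Bcl2a1b by a log2 difference of -2.84 ± 0.50 (SE, limma adjusted p = 0.0173), from 11.4 ± 5.33 FPKM in Prdm16s-Bulk to 0.848 ± 1.18 FPKM in L-MEP (SD, n = 3). It was the only member called between these groups, where 3.05% of genes were called, 0.977% higher and 2.08% lower, and 4 of the 10 members did not overlap (15.9% of genes). The call was lost when only the 2 groups were fitted (limma adjusted p = 0.283), without L-MEP replicate 1 (0.072) or 2 (0.0601) or Prdm16s-Bulk replicate 2 (0.0612), and with a pseudocount of 0.1 (0.0509). Without L-MEP replicate 3 the difference was -3.32 (limma adjusted p = 0.000258). In that fit Bid was lower in L-MEP too (-1.03, 0.00093), Bcl2l1 was higher (1.09, 0.0122), and 15.5% of genes were called.

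The makeup of the survival genes can be read on the per-length scale. In every library Mcl1 gave the highest FPKM of the 4, 77.7, 79.2 and 86.0% of their sum in Ctrl-MEP and 51.7, 63.3 and 73.6% in L-MEP. In Ctrl-Bulk it gave 47.4, 52.0 and 49.5%, and in Prdm16s-Bulk 59.6, 63.2 and 62.2%. Mcl1's share was lower in L-MEP than in Ctrl-MEP and higher in GFP+ than in control marrow, without overlap in either population. In L-MEP replicate 3, however, Bcl2a1b made up 6.22% of the sum from 1 read. The lack of overlap in MEPs hangs on that read. The 4 genes together reached 17.2, 16.3 and 24.6 FPKM in Ctrl-MEP, the lowest of the groups, and 55.7, 51.7 and 35.2 FPKM in L-MEP. The sum was 42.6 to 48.0 FPKM in Ctrl-Bulk and 57.7 to 72.0 FPKM in Prdm16s-Bulk. The ratio of Mcl1 to Bcl2l1 was 4.87, 5.55 and 9.70 in Ctrl-MEP and 1.63, 2.59 and 5.11 in L-MEP, where replicate 3 was inside the control range. In marrow it went the other way, from 1.59 to 2.24 in Ctrl-Bulk to 5.29 to 8.10 in Prdm16s-Bulk. These shares and ratios are descriptions with no test.

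**Figure D3:**
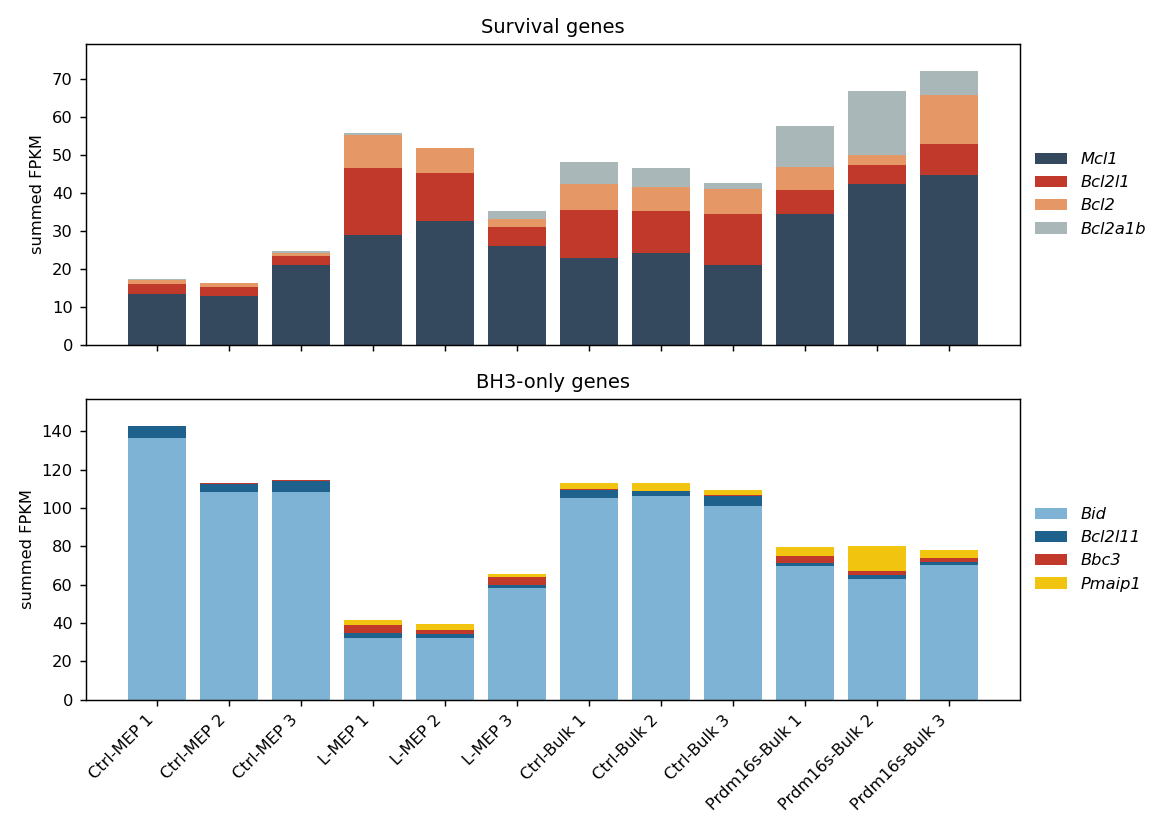
Stacked FPKM of the 4 survival genes (top) and the 4 BH3-only genes (bottom) in each of the 12 libraries, both axes linear and starting at 0. The survival total is lowest in the 3 Ctrl-MEP libraries (16.3 to 24.6 FPKM), and the BH3-only total, nearly all of it Bid, is lowest in L-MEP (39.3 to 65.4 FPKM).

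The pore-forming effectors did not pass the test in either population. Bax (chr7:45461697-45466898, minus strand), whose protein moves to mitochondria to form pores, was at 101, 192 and 141 FPKM in Ctrl-MEP and 124, 105 and 67.5 FPKM in L-MEP. In marrow Bax was at 72.5, 112 and 111 FPKM in the controls and 92.1, 80.3 and 131 FPKM in the GFP+ cells. The groups overlapped in both populations. Its log2 change was -0.54 in MEPs (95% interval -1.22 to 0.13, limma adjusted p = 0.22) and 0.034 in marrow (-0.64 to 0.71, limma adjusted p = 0.966).

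Bak1 (chr17:27019810-27029009, minus strand) encodes BAK, which sits in the mitochondrial membrane. It was at 13.1, 15.2 and 9.26 FPKM in Ctrl-MEP and at 11.2, 4.24 and 29.8 FPKM in L-MEP, where replicate 3 was the highest of all 12 libraries. Ctrl-Bulk held 6.36, 11.4 and 11.9 FPKM, and Prdm16s-Bulk 14.8, 14.2 and 11.1 FPKM. Its log2 change was -0.084 in MEPs (95% interval -1.18 to 1.01, limma adjusted p = 0.923) and -0.73 without L-MEP replicate 3 (limma adjusted p = 0.173). Marrow gave 0.44 (-0.66 to 1.53, limma adjusted p = 0.654). These intervals are wide enough to hold changes of more than 1 log2 unit.

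Bax exceeded Bak1 in every library, by 2.27 times in L-MEP replicate 3 and by 5.65 to 24.7 times in the other 11. Set against the summed survival genes, Bax was 5.73 to 11.8 times as high in Ctrl-MEP and 1.92 to 2.22 times in L-MEP. It was 1.51 to 2.60 times as high in Ctrl-Bulk and 1.20 to 1.82 times in Prdm16s-Bulk. This ratio did not overlap between the MEP groups and overlapped in marrow.

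Bid (chr6:120891930-120916853, minus strand) fell in leukemic MEPs. BID is cut by caspase-8 into the active form that carries death receptor signals to mitochondria. It was at 136, 108.3 and 108.4 FPKM in Ctrl-MEP, and at 32.4, 32.3 and 58.4 FPKM in L-MEP. Ctrl-Bulk held 105, 106 and 101 FPKM, and Prdm16s-Bulk 69.7, 62.7 and 70.0 FPKM. The groups stood in the order Ctrl-MEP, Ctrl-Bulk, Prdm16s-Bulk, L-MEP, and no library of one group overlapped with its neighbour in that order. Neighbours were close, however. Neither Ctrl-MEP against Ctrl-Bulk (limma adjusted p = 0.703) nor L-MEP against Prdm16s-Bulk (0.0955, and 0.00093 without L-MEP replicate 3) passed the test over all libraries. L-MEP replicate 3 rests on 66 reads, and its Poisson interval of 45.2 to 74.3 FPKM covers the Prdm16s-Bulk values. The log2 change in MEPs was -1.54 ± 0.23 (SE, limma adjusted p = 0.000518), from 118 ± 16.2 to 41.1 ± 15.1 FPKM (SD, n = 3), and it was called under every alternative.

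The marrow change of Bid, -0.62 ± 0.23, from 104 ± 2.80 to 67.5 ± 4.13 FPKM (SD, n = 3), did not pass the test (SE of the change, limma adjusted p = 0.123). It passed without L-MEP replicate 3 (limma adjusted p = 0.0136), when only the marrow groups were fitted (0.0162) and after scaling to equal totals (-0.86, 0.0422). The difference of the changes was -0.92 (limma adjusted p = 0.155), and -1.20 without L-MEP replicate 3 (0.00533). Bid shares 628 exon bases with Bcl2l13 on the opposite strand, and Bcl2l13 also fell in MEPs, from 19.4 ± 7.27 to 7.04 ± 0.585 FPKM (SD, n = 3; limma adjusted p = 0.00355), so reads from the shared bases cannot be told apart if strand was not kept.

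Bcl2l11 (chr2:128126038-128162547, plus strand), which encodes BIM, a trigger of death after cytokine withdrawal, fell in leukemic MEPs from a low level. It was at 6.03, 4.14 and 5.71 FPKM in Ctrl-MEP and 2.23, 2.11 and 1.51 FPKM in L-MEP. Marrow levels were 3.90, 2.42 and 5.09 FPKM in the controls and 1.83, 2.51 and 1.73 FPKM in GFP+ cells. The MEP groups did not overlap, and in marrow the highest GFP+ library passed the lowest control. The log2 change was -1.09 ± 0.29 in MEPs (SE, limma adjusted p = 0.0157) and -0.64 ± 0.29 in marrow (limma adjusted p = 0.201). The MEP call was lost without Ctrl-MEP replicate 1 (limma adjusted p = 0.0548) or 3 (0.0604).

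Bbc3 (chr7:16308393-16318205, plus strand) was higher in both Prdm16s populations. It encodes PUMA, which binds all survival proteins of the family and is a target of p53 and FOXO3. In Ctrl-MEP it was at 0, 0.272 and 0.283 FPKM and in L-MEP at 4.36, 2.11 and 4.24 FPKM, the last from 5 reads with a Poisson interval of 1.38 to 9.89 FPKM. Ctrl-Bulk held 0.474, 0.383 and 0.707 FPKM, and Prdm16s-Bulk 3.25, 1.88 and 2.03 FPKM. Each of the 6 Prdm16s libraries exceeded each of the 6 control libraries. Reads were few in the controls, 0 to 11 a library, and 4 in Prdm16s-Bulk replicate 2.

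The log2 change of Bbc3 was 1.91 ± 0.29 in MEPs (SE, limma adjusted p = 0.000625), called under every alternative, and 1.79 without L-MEP replicate 3 (0.00107). In marrow it was 1.14 ± 0.29 (SE, limma adjusted p = 0.0317). The marrow call was lost without any single Ctrl-Bulk library (limma adjusted p from 0.0898 to 0.145), without Prdm16s-Bulk replicate 1 (0.0995) or 2 (0.0506) and without Ctrl-MEP replicate 2 (0.051) or 3 (0.0529). It was also lost with a pseudocount of 0.1 (1.99, 0.0813), in voom on recovered reads (2.21, 0.0709) and after scaling to equal totals (0.97, 0.0592). The difference between the changes was 0.78 (95% interval -0.13 to 1.68, limma adjusted p = 0.366).

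Pmaip1, which encodes NOXA, a BH3-only protein that binds MCL1 and A1, was not detected in control MEPs. It had 0 reads in all 3 Ctrl-MEP libraries and 80, 60 and 2 reads in L-MEP, or 2.71, 2.77 and 1.26 FPKM. In Ctrl-Bulk it was at 2.98, 3.87 and 2.39 FPKM and in Prdm16s-Bulk at 4.84, 12.9 and 4.45 FPKM. All GFP+ libraries lay above all control marrow libraries, and replicate 2, with 37 reads, was the highest. Against a floor of 3 reads over the Ctrl-MEP group, 0.0473 FPKM, the mean of Pmaip1 was 47.5 times as high in L-MEP and 65.1 times in Ctrl-Bulk. These ratios leave out the spread of the means and are not lower limits. The fitted log2 change in MEPs, 1.66 ± 0.37 (SE, limma adjusted p = 0.00643), depends on the pseudocount and is no bound. In marrow the change of 0.92 ± 0.37 did not pass the test (limma adjusted p = 0.153). The difference of the changes, 0.74, missed the threshold (limma adjusted p = 0.51), and passed it with a pseudocount of 0.1 (3.38, 0.0256), with array weights (1.06, 0.0411), without both libraries of low depth (1.42, 0.0304) and in voom (6.04, 0.00247).

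Together the 4 BH3-only genes summed to 142, 113 and 114 FPKM in Ctrl-MEP and 41.7, 39.3 and 65.4 FPKM in L-MEP. In marrow the sum was 109 to 113 FPKM in the controls and 78.2 to 80.0 FPKM in GFP+ cells. Bid made up 94.8 to 96.1% of the sum in Ctrl-MEP and 77.7 to 89.3% in L-MEP. Bbc3 was at most 0.247% of it in Ctrl-MEP and 5.36 to 10.5% in L-MEP. The BH3-only total was lower in both Prdm16s groups than in their controls, without overlap.

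Control MEPs were lower than control marrow in 4 of the 10 genes and higher in 0 by limma, and by voom as well. Of all genes 15.0% were called by limma, 2.63% higher and 12.3% lower, and voom called 810 higher and 1921 lower of 11462. At an unadjusted p under 0.05 there were 5 members lower and 0 higher, with no share of all genes to set beside them. The groups did not overlap for 6 of the 10 members (46.4% of genes). The 4 called by limma were Bcl2l1 (log2 difference -1.96, limma adjusted p = 0.00264), Bcl2 (-1.99, 0.0165), Bcl2a1b (-1.96, 0.0193) and Pmaip1 (-2.01, 0.00265). Bcl2l1 and Pmaip1 were called in every alternative. The call of Bcl2 was lost without Ctrl-MEP replicate 1 (limma adjusted p = 0.0542) or 3 (0.0567), without each Ctrl-Bulk library (0.0612, 0.0529 and 0.0574) and after quantile normalization (0.0702). That of Bcl2a1b was lost without each Ctrl-MEP library (limma adjusted p = 0.0521, 0.0753 and 0.051), without Ctrl-Bulk replicate 1 (0.101) or 2 (0.0838) and after quantile normalization (0.0816). This comparison shares its Ctrl-MEP libraries with the comparison of MEPs. The L-MEP means of Bcl2l1 (11.8 FPKM) and Bcl2 (5.76 FPKM) stood beside Ctrl-Bulk means of 12.3 and 6.62 FPKM.

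Markers of blood cell types moved with these groups. The 14 erythroid markers summed to 12025 to 13670 FPKM in Ctrl-MEP and to 639 to 3309 FPKM in L-MEP, with 1 of 14 called higher and 10 lower. In marrow they fell from 5150 to 6919 FPKM to 241 to 979 FPKM, with all 14 called lower. The 12 megakaryocyte and platelet markers summed to 20.1 to 135 FPKM in Ctrl-MEP and to 5845, 4809 and 372 FPKM in L-MEP, with 9 of the 11 tested called higher and Gp6 at 0 in L-MEP and Ctrl-Bulk. In marrow they summed to 184 to 251 FPKM in the controls and 315 to 610 FPKM in GFP+ cells, with 2 higher and 1 lower. Within L-MEP, Bcl2l1 and the platelet sum were both higher in replicates 1 and 2 than in replicate 3. In Ctrl-Bulk, with a platelet sum of at most 251 FPKM, Bcl2l1 was at 10.8 to 13.3 FPKM, and 2 of these libraries exceeded L-MEP replicate 2 (12.6 FPKM). The part of these cell types in the changes of Bcl2l1 was not tested.

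Myeloid markers were higher in L-MEP, with the highest sums in replicate 3. The 7 primary granule markers summed to 10.3 to 109 FPKM in Ctrl-MEP and to 577, 815 and 23043 FPKM in L-MEP, with 6 called higher. Of the 10 mature neutrophil markers, 17.8 to 294 FPKM in Ctrl-MEP, 5 were called higher in L-MEP. In the marrow limma called 0 of both lists higher or lower, against 3 primary granule markers higher and 2 neutrophil markers lower by voom, and 3 and 0 higher at an unadjusted p under 0.05. Neutrophil sums there were 64112 to 79009 FPKM in the controls and 63499 to 100430 FPKM in the GFP+ cells. Bcl2a1b was at 1.50 FPKM or more in the 7 libraries whose neutrophil sum was 63499 FPKM or more, and at most 0.366 FPKM in the other 5. L-MEP replicate 3 is among the 7 by 1 read (2.19 FPKM, Poisson interval 0.0555 to 12.2 FPKM), and any read there exceeds 1.50 FPKM. The same 7 libraries held the highest primary granule sums (13330 FPKM or more, against 815 FPKM or less). They also held the highest monocyte and macrophage sums (575 FPKM or more, against 40.1 FPKM or less). The 10 B lymphoid markers summed to 172 to 229 FPKM in Ctrl-Bulk and to 80.7 to 119 FPKM in GFP+ marrow, with 6 called lower and Pax5, Ebf1 and Rag1 at 0. Cd79b gave 113.5, 76.0 and 60.3 FPKM of the GFP+ sums and 57.5 to 75.0 FPKM in Ctrl-Bulk; the other 9 summed to 109 to 154 FPKM in Ctrl-Bulk and 5.23 to 20.5 FPKM in GFP+ marrow. The 9 T and NK markers summed to 703 to 889 FPKM in Ctrl-Bulk and 710 to 1024 FPKM in GFP+ marrow, most of it Nkg7, and without Nkg7 to 16.4 to 21.7 and 4.73 to 12.5 FPKM. Of this list 3 were called lower, with Cd3e, Cd3g, Cd2, Klrd1 and Cd8a at 0 in GFP+ marrow. Bcl2 was at 2.39 to 12.8 FPKM in these GFP+ libraries. The 7 mast cell, basophil and eosinophil markers summed to 498 to 935 FPKM in Ctrl-Bulk and to 1708 to 3052 FPKM in GFP+ marrow, without overlap. Most of the GFP+ sum was Prg2, at 1221 to 2402 FPKM against 187 to 362 FPKM in Ctrl-Bulk. Epx (300 to 447 against 5.02 to 16.0 FPKM) and Fcer1a (18.6 to 107 against 2.53 to 7.83 FPKM) were also higher. Cpa3 (27.0 to 38.9 against 146 to 180 FPKM) and Prss34 (0 against 86.6 to 201 FPKM) were lower, while Mcpt8 and Ms4a2 overlapped. Of this list 1 was called higher in marrow and 2 lower. The part of lymphoid, neutrophil or other myeloid RNA in the levels of Bcl2 and Bcl2a1b was not tested.

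**Figure D4:**
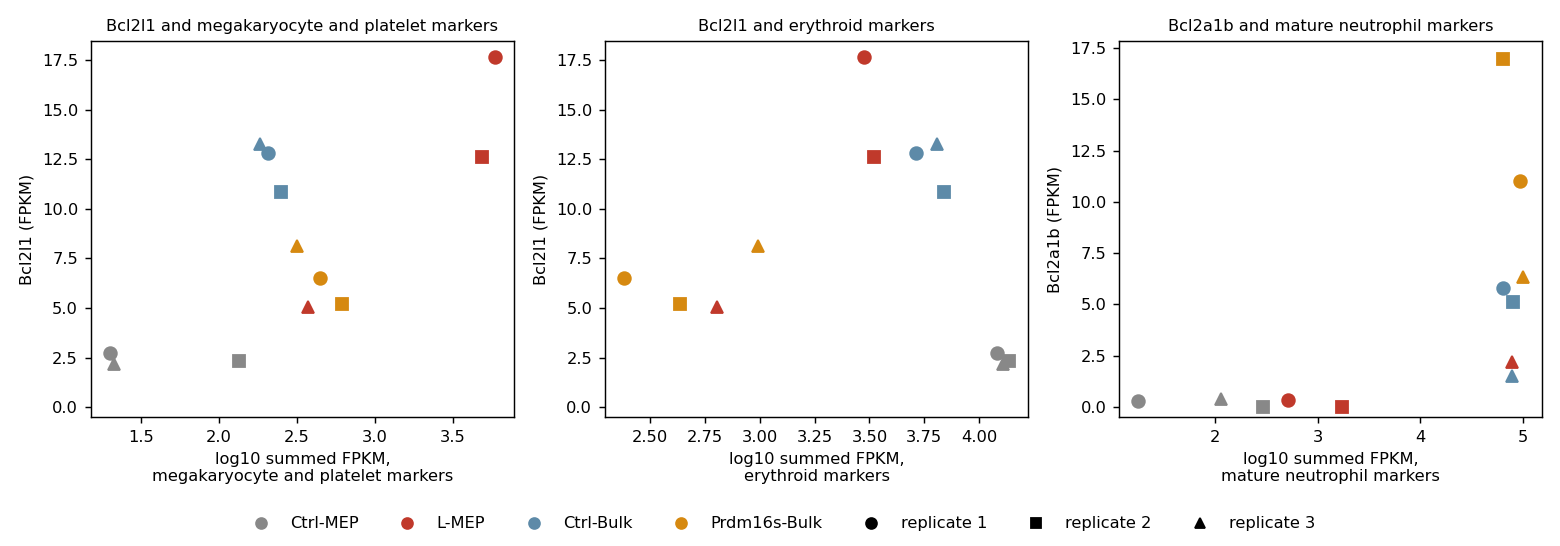
Bcl2l1 against the summed megakaryocyte and platelet markers (left) and erythroid markers (middle), and Bcl2a1b against the summed mature neutrophil markers (right), in 12 libraries; the horizontal axes are log10 of the summed FPKM, the vertical axes FPKM on a linear scale, colours give the group and shapes the replicate. L-MEP replicates 1 and 2 sit at the upper right of the left panel, at 17.7 and 12.6 FPKM of Bcl2l1. L-MEP replicate 3 lies with the marrow libraries along the horizontal axis of the right panel, and its Bcl2a1b level rests on 1 read.

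Of 10 other genes of the BCL2 family, 5 passed the filter and 0 were called by limma in either population. At an unadjusted p under 0.05 there were 0 in MEPs, and 2 higher and 1 lower in marrow, and voom called 0 in MEPs and 1 in marrow. Bcl2l2, which encodes the survival protein BCL-W, was at 1.48 ± 0.357 FPKM in Ctrl-MEP and 2.69 ± 1.20 FPKM in L-MEP (SD, n = 3; log2 change 0.54, limma adjusted p = 0.283). Bad, a BH3-only gene whose protein is held inactive by phosphorylation, was at 28.7 ± 6.73 and 28.3 ± 6.39 FPKM (SD, n = 3; limma adjusted p = 0.963). Bmf, another BH3-only gene, was at 0.341 ± 0.229 FPKM in Ctrl-Bulk and 2.07 ± 0.303 FPKM in Prdm16s-Bulk (SD, n = 3; log2 change 1.20, limma adjusted p = 0.0832, and 0.00364 without L-MEP replicate 3). Bok, another effector, was at 2.20 ± 0.631 FPKM in Ctrl-Bulk and 0.692 ± 0.956 FPKM in Prdm16s-Bulk (SD, n = 3; limma adjusted p = 0.176). Bcl2l10 was listed at 0 in every library. Among the 8 BNIP and distant BCL2-like genes, Bnip3, which encodes a mitophagy receptor, rose in MEPs (0.75, limma adjusted p = 0.0348), and Bcl2l15, Bcl2l13 and Bnip1 fell, Bnip1 not without L-MEP replicate 3 (0.0634). In marrow only Bcl2l15 fell (-0.998, limma adjusted p = 0.0383).

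Downstream of the mitochondrion, 2 of 8 apoptosome and caspase genes rose in leukemic MEPs and 0 fell by limma (0 by voom, 1 at an unadjusted p under 0.05), with a list median of 0.31 against 0.018 over all genes. Cflar, whose product FLIP blocks caspase-8, rose from 1.93 ± 0.265 to 8.17 ± 4.41 FPKM (SD, n = 3; limma adjusted p = 0.00346). Casp8, the caspase that cuts BID, rose from 23.3 ± 3.29 to 47.9 ± 3.75 FPKM (SD, n = 3; limma adjusted p = 0.00499). In marrow limma called 0 of the 8, against 1 higher and 0 lower at an unadjusted p under 0.05, by voom and without L-MEP replicate 3. Casp8 was at 47.1 ± 6.76 FPKM in Ctrl-Bulk and 76.1 ± 18.2 FPKM in Prdm16s-Bulk (SD, n = 3; limma adjusted p = 0.0796, and 0.0411 without L-MEP replicate 3).

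Among 7 genes of the inhibitors of apoptosis and their antagonists, 2 inhibitors rose and 3 antagonists fell in MEPs. The inhibitors Birc3 (log2 change 1.59, limma adjusted p = 0.00276) and Xiap (1.13, 0.00396) rose. The antagonists Sept4 (-3.02, limma adjusted p = 0.000221), Htra2 (-1.43, 0.000521) and Diablo fell. Sept4 went from 17.9 ± 1.76 to 1.33 ± 0.207 FPKM (SD, n = 3). In marrow Xiap rose (0.82, limma adjusted p = 0.0445), and Sept4 (-1.74, 0.0177) and Htra2 (-0.75, 0.0463) fell. The list's median was 0.33 in MEPs and -0.51 in marrow, against 0.018 and -0.048 over all genes.

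The p53 list, from which Bax, Bbc3 and Pmaip1 were left out, did not move one way. Of 16 genes tested, 3 rose in MEPs and 2 fell, with a median of 0.20. Cdkn1a, which encodes the cell cycle inhibitor p21, rose from 2.04 ± 1.30 to 14.1 ± 6.87 FPKM (SD, n = 3; limma adjusted p = 0.000914), and Btg2, an antiproliferative gene, rose from 3.93 ± 0.661 to 35.8 ± 20.4 FPKM (SD, n = 3; limma adjusted p = 7.93e-05). Aen, which encodes an exonuclease induced by p53, fell (-1.49, limma adjusted p = 0.00569), and Trp53 itself fell from 310 ± 44.6 to 189 ± 41.1 FPKM (SD, n = 3; limma adjusted p = 0.0265, and 0.0502 without L-MEP replicate 3). The third gene that rose was Trp53inp1 (1.54, limma adjusted p = 0.0265), whose call was also lost without that library (0.98, 0.0586), while Fas, the death receptor gene, passed the test without it (1.57, 0.0104). In marrow 0 of the 16 rose by limma (2 at an unadjusted p under 0.05, 1 by voom) and 3 fell, Btg2 (-1.87, limma adjusted p = 0.00339), Gtse1 (-1.99, 0.0162) and Aen (-1.21, 0.0377), with a median of -0.093.

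Of 12 partners and regulators of the family's turnover, 1 rose and 3 fell in MEPs, with a median of -0.33. Ier3, a stress gene whose protein stabilises MCL1, rose from 2.43 ± 1.09 to 23.3 ± 13.3 FPKM (SD, n = 3; limma adjusted p = 0.00149). Fbxo10, whose ubiquitin ligase marks BCL2 for degradation, fell from 5.87 ± 2.62 to 0.406 ± 0.224 FPKM in MEPs (SD, n = 3; limma adjusted p = 0.000452) and from 2.56 ± 0.269 to 0.239 ± 0.268 FPKM in marrow (SD, n = 3; limma adjusted p = 0.011), where it was the only gene of this list called. Vdac1, the outer membrane channel, fell in MEPs from 204 ± 1.61 to 114 ± 3.13 FPKM (SD, n = 3; limma adjusted p = 0.00209). Over the 8 lists and 56 genes tested, 9 (16.1%) rose and 11 (19.6%) fell in MEPs, beside 13.7% and 12.3% of all genes. In marrow 1 (1.79%) rose and 7 (12.5%) fell, beside 3.02% and 6.03% of all genes. Without L-MEP replicate 3, 3 of these calls in MEPs were lost and 4 gained, and in marrow 0 were lost and 5 gained.

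Across the 12 libraries the members fell into a few patterns, given here as Pearson r on log2(FPKM + 1). The libraries share their groups and depth, so these are descriptions. Bcl2l1 and Bcl2 went together (0.889), as did Mcl1 and Pmaip1 (0.846), while Bid and Bbc3 (-0.843) and Bcl2l11 and Bbc3 (-0.843) ran in opposite directions. Among 6603 genes with a group mean of at least 10 FPKM, the gene with the highest r to Bbc3 was Prdm16 itself (0.966), followed by Crtap (0.952). Prdm16 means were 0.556, 11.9, 0.806 and 9.04 FPKM in Ctrl-MEP, L-MEP, Ctrl-Bulk and Prdm16s-Bulk, in the same order of groups as Bbc3. Prdm16 and Bbc3 were each higher in every Prdm16s library than in every control library, so a high r between them comes with the groups. A link between these genes was not tested. Those closest to Bcl2l1 were Dtnbp1 (0.950) and Arrb2 (0.948), to Bid St3gal5 (0.964) and Cd82 (0.955), to Pmaip1 Btg1 (0.969) and Pqlc3 (0.948), and to Mcl1 BC005537 (0.960) and Taok1 (0.949).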

How the data were processed

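RNA-seq was done on 12 libraries in 4 groups of 3. Per the labels' protocols, cells were sorted into Trizol, Smart-seq2 was used for cDNA and Nextera XT for the libraries, and sequencing was on a HiSeq2500. The submitters' processing notes name CASAVA, bcl2fastq, STAR 2.5.3a, DESeq2 1.18.1 and the build mm10; no source used here names the read counter, its annotation or its use of strand. Values are FPKM in one deposited table of 24107 genes. The members and lists were chosen with earlier results of these data known.

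The FPKM values were whole multiples of the worth of 1 read for all 16728 genes above 0 (tolerance 0.02), which gave reads per gene and library: 0.572 to 9.71 M (1e+06) a library. Intervals and 3-read floors cover counting error only. limma 3.58.1 (trend) in R 4.3.3 was fitted to log2(FPKM + 1) of 11462 genes that reached an FPKM of 1 in 3 or more libraries, with 4 group means and 8 residual degrees of freedom. Fold changes on this scale understate those of low genes. P-values were Benjamini-Hochberg adjusted over all genes tested and called under 0.05. No share of all genes was worked out at an unadjusted p under 0.05, so counts at that threshold have no background. The fit was also run on simulated data with a single mean level per gene apart from planted changes, a fixed spread and no outlying library. Its outcome is not given and does not show how the fit behaves with a library such as L-MEP replicate 3. An exact permutation test of 3 against 3 libraries cannot go below p = 0.1 and was not used.

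Named were the 10 members, the 2 genes of smallest p per pathway list and direction, other BCL2 family genes, and for the members with the clearest results the 2 genes of highest correlation over the libraries. Some further list genes were named after their values were seen (Bnip1, Diablo, Trp53inp1, Fas). Alternatives covered the pseudocount, filter, scaling, array weights, replicate block, voom on recovered reads, fits of 2 groups alone and each library left out; leaving out both libraries of low depth was added after seeing the data. Gene positions and reading frames came from GENCODE vM21, promoters from RefSeq. The promoter of Pmaip1 and the family's protein sequences were not used here, and 2 genes of the apoptosome and caspase list are not reported here.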

Additional observations from a re-analysis of the deposited data

Results flagged for a closer look

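For 3 genes the change in leukemic MEPs differed from the change in GFP+ marrow by a test of that difference (limma on log2(FPKM + 1), adjusted over all genes tested). They were 1 of the 10 members and 2 of the 56 listed genes tested (3.57%). Of all genes tested 4.89% were called, 4.52% higher and 0.366% lower. Bcl2l1 gave a difference of 2.58, rising in MEPs and lying lower in marrow. Btg2 gave 4.64 (limma adjusted p = 0.000252), from 3.93 to 35.8 FPKM in MEPs and from 105 to 28.2 FPKM in marrow. Birc3 gave 2.01 (limma adjusted p = 0.0204), from 1.85 to 7.67 FPKM in MEPs and from 8.15 to 5.83 FPKM in marrow.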

How the results depend on the processing

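Of 50 results on the 10 members, 15 were calls, of which 6 held in all of up to 22 alternatives, and 35 were not calls, of which 23 stayed uncalled. By count 0 reversed, where a reversal is a change of sign with a call in either fit. Uncalled changes did switch sign, such as that of Bak1 in MEPs, from -0.73 to 0.55 over the alternatives. The 6 were Bcl2l1, Bid, Bbc3 and Pmaip1 in MEPs and Bcl2l1 and Pmaip1 between control MEPs and control marrow. Genes called numbered 2976 in MEPs, 1037 in marrow, 560 for the difference of changes, 1716 between the controls and 350 between L-MEP and GFP+ marrow. In that order, array weights gave 6151, 3453, 2966, 5511 and 3285. For the last 4, voom gave 1908, 892, 2731 and 1780, and leaving out both libraries of low depth gave 1806, 1003, 2849 and 1685. Fits of 2 groups alone gave 1775 in marrow, 3437 between the controls and 0 between L-MEP and GFP+ marrow. That last comparison had 225 calls with a pseudocount of 0.1, 205 with no filter on low values, 634 after scaling to equal totals and 194 after quantile normalization. Leaving out 1 library gave 1916 to 3385 in MEPs, 388 to 2126 in marrow, 213 to 1075 for the difference, 944 to 2780 between the controls and 46 to 1760 for the last. The cause of these shifts was not tested. Scaling to equal totals moved the median change over all genes in marrow from -0.048 to -0.25 and the split there to 195 higher and 844 lower, from 346 and 691; quantile normalization gave 457 and 602. Between L-MEP and GFP+ marrow the split went from 112 and 238 to 502 and 132 (median 0.36). Between the controls it went from 302 and 1414 to 592 and 1326 (median 0.18) and 724 and 1084 (median 0.26). With the replicate number as a block, counts were 2830, 932, 490, 1607 and 287, and 1 of 50 member calls changed, Mcl1 in marrow. Same-numbered libraries of the MEP groups deviated with correlations of -0.157, -0.0521 and -0.153, those of the marrow groups with 0.017, -0.0619 and 0.0204, those of the control groups with 0.497, 0.285 and 0.0734, and those of the Prdm16s groups with 0.0862, 0.215 and 0.149. In the Prdm16s groups alone each library correlated best with its own number. Xist followed the number there too, at 49.4, 57.1 and 0 FPKM in L-MEP and 39.2, 41.2 and 0.00658 FPKM in Prdm16s-Bulk. These are hints from the data only. No pair of groups had all 3 correlations above 0.1, and the labels name no shared source for a number. Depth limits L-MEP replicate 3, where Pmaip1 rests on 2 reads (Poisson interval 0.153 to 4.56 FPKM), Bbc3 on 5 and Bcl2l11 on 7.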
